A study of Mus musculus with 4 samples.

Results

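The 8 genes described here, Srebf1, Srebf2, Scap, Insig1, Insig2, Stard4, Mylip and Aacs, belong to the circuit by which a cell senses its sterols and adjusts sterol synthesis and lipoprotein uptake. They were taken by name from the 24015 genes counted in each library, and all 8 passed the filter on low counts that left 14259 genes for testing. RNA came from mouse embryoid bodies, free-floating aggregates of differentiating embryonic stem cells, at day 7. In the 2 Trim33-deficient libraries the loss of Trim33, a chromatin-binding ubiquitin ligase that partners with SMAD proteins, had been induced by 4-hydroxytamoxifen on day 4. The 2 Control libraries carry the label wild type, and the sources used here do not state whether those bodies received the drug. Per the labels, the stem cell lines (strain given as outbred, passages 8 to 10, grown feeder-free with LIF and 2i) had the Trim33-flox allele on both chromosomes and the UbcCreERT2 transgene, in which a ubiquitin promoter drives a Cre recombinase that tamoxifen activates. That description is attached to both groups, and the labels do not reconcile it with the wild-type label of the Control libraries.

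SREBP-2 and SREBP-1, the products of Srebf2 and Srebf1, are transcription factors that sit in the endoplasmic reticulum membrane, bound to the escort protein SCAP. When membrane cholesterol is high, SCAP binds INSIG proteins and the complex stays in place. When it is low, the complex travels to the Golgi, where proteases free the active factor, which then switches on genes of cholesterol synthesis, lipoprotein uptake and fatty acid synthesis. Of the members, 4 were grouped as SREBP targets: Insig1, Stard4, Aacs and Srebf2 itself. Srebf1 was kept apart because SREBP drives only one of its isoforms, and Scap, Insig2 and Mylip were grouped as genes not driven by SREBP.

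RefSeq promoter windows, 250 bases before to 50 bases after an annotated start on GRCm38.p6, were at hand for 7 of the 8 members, with 12 windows in all. Those of Srebf2, Insig1 and Aacs are shown because these 3 SREBP targets had the highest levels relative to Control among the members, as described below. All 3 lie on the plus strand, Srebf2 at chr15:82147019-82147318, Insig1 at chr5:28071162-28071461 and Aacs at chr5:125475623-125475922. Capitals mark matches on either strand to the inverted CCAAT box ATTGG, which NF-Y binds, the GC box GGGCGG, which Sp1 binds, the E-box CACGTG, or the sterol regulatory element TCACNCCAC with its last base left free (TCACNCCA).
Srebf2: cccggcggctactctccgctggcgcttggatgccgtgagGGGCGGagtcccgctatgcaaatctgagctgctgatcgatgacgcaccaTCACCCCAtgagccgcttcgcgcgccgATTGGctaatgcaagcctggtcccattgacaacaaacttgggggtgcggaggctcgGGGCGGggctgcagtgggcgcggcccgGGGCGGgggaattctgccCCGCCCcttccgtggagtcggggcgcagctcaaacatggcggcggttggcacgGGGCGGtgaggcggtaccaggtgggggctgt
Insig1: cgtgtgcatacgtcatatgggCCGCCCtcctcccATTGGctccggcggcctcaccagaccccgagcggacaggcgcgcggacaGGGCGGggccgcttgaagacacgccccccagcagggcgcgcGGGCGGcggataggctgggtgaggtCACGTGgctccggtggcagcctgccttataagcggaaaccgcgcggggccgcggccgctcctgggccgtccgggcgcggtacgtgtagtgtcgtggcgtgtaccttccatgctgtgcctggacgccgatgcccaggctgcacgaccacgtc
Aacs: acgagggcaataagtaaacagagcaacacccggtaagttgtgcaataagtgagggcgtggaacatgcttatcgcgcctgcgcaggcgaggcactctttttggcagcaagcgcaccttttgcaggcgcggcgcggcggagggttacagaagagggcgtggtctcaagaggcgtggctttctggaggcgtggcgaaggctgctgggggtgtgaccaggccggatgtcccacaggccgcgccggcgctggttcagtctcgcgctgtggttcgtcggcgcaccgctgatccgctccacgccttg
No base fell in more than 1 match. The full sterol regulatory element TCACNCCAC was in 0 of the 12 windows and in 1.24% of the 32851 mouse promoters of the same length. With its last base free, a form tried after the windows had been seen, it was in 1 window, that of Srebf2, where it began 162 bases before the start, and in 4.36% of all promoters. In the same Srebf2 window an inverted CCAAT box began 135 bases before the start, downstream of the sterol element, and there were 5 GC boxes. Insig1 had 1 inverted CCAAT box, 3 GC boxes and 1 E-box, and the Aacs window held no match to any of these motifs. Across the 12 windows the inverted CCAAT box was in 6 (37.4% of all promoters), the GC box in 9 (35.7%) and the E-box in 3 (7.15%). The 2 Scap windows share 232 bases, so their E-box and 1 of their GC boxes are sites counted in both, and the 3 E-box windows hold 2 distinct sites. Mylip and the first start of Insig2, neither of them SREBP targets, each had 3 inverted CCAAT boxes. A missing match says only that these letters are not in this window.

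**Figure D1:**
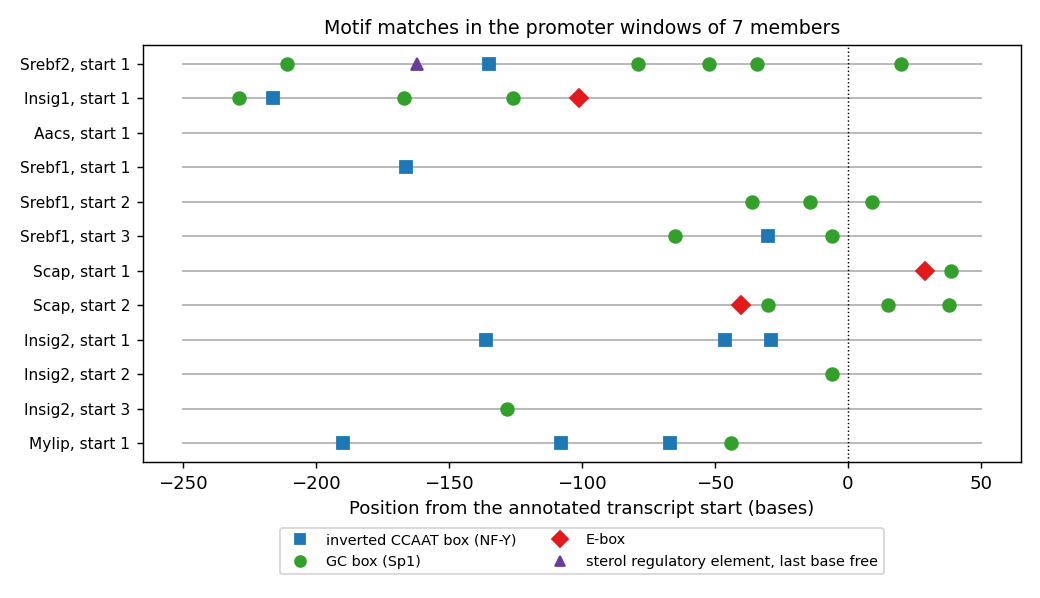
Positions of motif matches in the 12 promoter windows of 7 members, in bases from each annotated transcript start (x axis), 1 line per window. The inverted CCAAT box appears in 6 windows, the GC box in 9, the E-box in 3 (the 2 Scap windows overlap and share 1 E-box), and the sterol regulatory element with its last base free in the Srebf2 window alone.

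Libraries held 13808837 and 12109547 counts in genes in Trim33-deficient replicates 1 and 2 and 12390541 and 10422738 in Control replicates 1 and 2. Values below are CPM, the counts of a gene scaled to a common library size by TMM, in the order replicate 1, replicate 2. Trim33 was at 43.8 and 42.3 CPM in Trim33-deficient bodies, against 93.0 and 109 CPM in Control bodies, which left 42.6% of the Control level (log2 fold change −1.23 ± 0.13, SE). Its adjusted p was 0.219 by edgeR's quasi-likelihood test and 1.78e-06 by DESeq2. Markers of visceral endoderm, the extra-embryonic epithelium that carries lipid to the embryo, were lower in Trim33-deficient bodies for 15 of 15 genes (median log2 fold change −3.62; 2 called by edgeR and 12 by DESeq2), with summed levels of 347 and 349 CPM against 1539 and 1851 CPM in Control bodies. Of all 14259 genes tested, edgeR called only those 2, and DESeq2 called 115 as lower. Among the defining markers of visceral endoderm, Apoa1 was at 3.75 and 4.10 CPM in Trim33-deficient and 54.9 and 85.7 CPM in Control bodies. Alb and Cyp7a1, markers of hepatocytes, had 0 counts in all 4 libraries. In these bulk samples fewer cells of a type and less RNA per cell cannot be told apart, and the part of this marker shift in the values below was not tested.

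At the level of the whole circuit, 7 of the 8 members had a positive log2 fold change and Mylip a negative one, with a median of 0.26 against −0.0014 over all genes tested. By edgeR's quasi-likelihood test with Benjamini-Hochberg adjustment over all genes, 0 members passed 0.05, where 0.0140% of genes tested did (2 of 14259). DESeq2 called 1 member, Aacs, as higher in Trim33-deficient bodies, where it called 0.182% of genes in that direction (26). At an unadjusted edgeR p under 0.05, 4 members were higher (Aacs, Insig1, Srebf2 and Srebf1), against 3.06% of all genes (436 of 14259). Mylip was lower at that threshold, as were 682 of the 14259 genes. In the 4 higher members each Trim33-deficient library lay above each Control library, as in 19.3% of all genes. In Mylip each lay below, as in 21.4% of all genes. Across the 4 SREBP targets the median log2 fold change was 0.52 and 3 of 4 had groups that did not overlap, while across the 3 genes not driven by SREBP it was 0.014 and 1 of 3 did so, in the lower direction. With 2 libraries a group and 8 genes chosen by name, these counts describe the members and carry no test of the 2 groups of genes against each other.

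**Figure D2:**
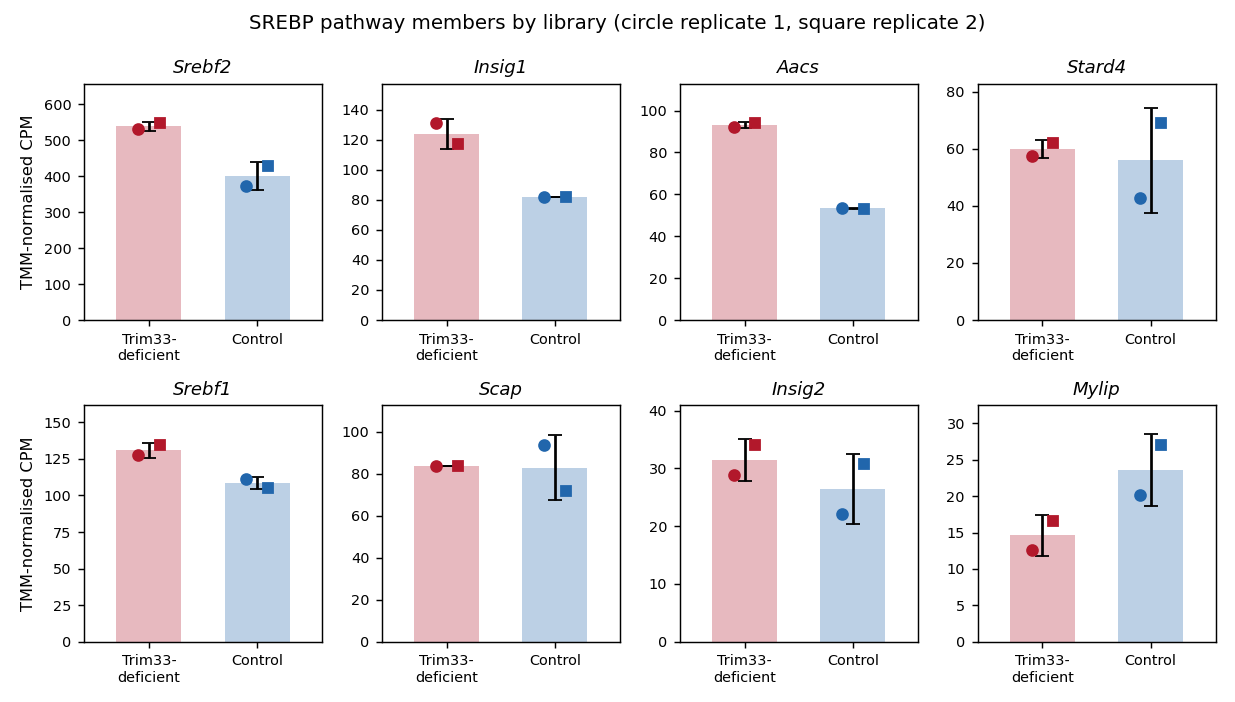
TMM-normalised CPM (y axis, from 0, one scale per panel) of the 8 members in Trim33-deficient (red) and Control (blue) libraries. Points are libraries, bars are means and error bars are the SD (n = 2 each); Srebf2, Insig1, Aacs and Srebf1 do not overlap upward, Mylip does not overlap downward, and Stard4, Scap and Insig2 overlap.

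Aacs encodes acetoacetyl-CoA synthetase, a cytosolic enzyme that turns the ketone body acetoacetate into a precursor for sterols and fatty acids and is a target of SREBP-2. It was at 92.1 and 94.0 CPM in Trim33-deficient bodies, against 53.3 and 53.2 CPM in Control bodies. The replicates lay close together in each group and the groups were well apart, a 1.75-fold difference. The log2 fold change was 0.80 ± 0.11 (SE), with an adjusted p of 0.267 by edgeR's quasi-likelihood test and 0.00202 by DESeq2. Within the numbered pairs, Trim33-deficient over Control, the log2 difference was 0.79 for replicate 1 and 0.82 for replicate 2. The DESeq2 call was lost when the replicate number entered as a block (adjusted p 0.104) and whenever any 1 library was left out (0.0755 to 0.99995), while the log2 fold change stayed between 0.76 and 0.83.

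Insig1, the SREBP-induced paralog of the proteins that retain SCAP, closes the feedback loop. It had 131 and 117 CPM in Trim33-deficient bodies, against 81.6 and 81.8 CPM in Control bodies. Both Trim33-deficient libraries were above the Control libraries, which agreed to within 1 CPM of each other. The log2 fold change was 0.60 ± 0.11 (SE), 1.52-fold, with adjusted p values of 0.483 by edgeR's quasi-likelihood test and 0.0754 by DESeq2. Neither passed the threshold.

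Srebf2 encodes the SREBP that mainly drives cholesterol genes, its own among them. It had the highest level of the 8 members, 530 and 548 CPM in Trim33-deficient bodies, against 372 and 429 CPM in Control bodies. The groups did not overlap, and the gap between the closest libraries was larger than the difference between the Control replicates. The log2 fold change was 0.43 ± 0.13 (SE), with adjusted p values of 0.581 by edgeR's quasi-likelihood test and 0.317 by DESeq2. Mir33, a microRNA gene in a Srebf2 intron, had 0 counts in every library. Such gene counts do not show whether the mature microRNA was present.

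Stard4, which carries cholesterol between membranes in the cytosol and is a classical SREBP-2 target, did not follow the other 3. It had 57.6 and 62.1 CPM in Trim33-deficient bodies, against 42.8 and 69.0 CPM in Control bodies. Control replicate 1 was the lowest of the 4 libraries and Control replicate 2 the highest, so the Control libraries spanned the Trim33-deficient ones. The fit gave a log2 fold change of 0.10 ± 0.25 (SE; adjusted p 0.920 by edgeR), and its sign depended on the Control library kept: it was −0.21 with Control replicate 1 left out and 0.49 with Control replicate 2 left out. At this spread no difference was detectable, and a difference of the size seen for Insig1 lies within 2 SE of it.

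Srebf1 encodes SREBP-1, which in many tissues drives fatty acid synthesis. Its level was 127 and 135 CPM in Trim33-deficient bodies and 111 and 105 CPM in Control bodies. Every Trim33-deficient library was above every Control library, but by less than for Aacs, Insig1 or Srebf2. The log2 fold change was 0.27 ± 0.10 (SE; adjusted p 0.637 by edgeR's quasi-likelihood test and 0.941 by DESeq2). Counts per gene do not separate the SREBP-1a and SREBP-1c isoforms, which start at different promoters. Srebf1 also overlaps Rai1 on the opposite strand, which had 1236 to 2021 counts, and no source used here states whether counting was stranded, so the assignment of reads in the overlap is uncertain.

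Scap, the sterol-sensing escort of both SREBPs, stood at 83.9 and 83.7 CPM in Trim33-deficient bodies and 93.9 and 72.1 CPM in Control bodies. The Trim33-deficient libraries fell between the Control libraries. A log2 fold change of 0.014 ± 0.16 (SE; adjusted p 0.985 by edgeR) was fitted. Within the pairs it was negative for replicate 1 (−0.16) and positive for replicate 2 (0.22).

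Insig2 does the same retention work as Insig1 but is not induced by SREBP. It was at 28.9 and 34.1 CPM in Trim33-deficient bodies, against 22.1 and 30.8 CPM in Control bodies. The ranges overlapped, and the lowest value was again Control replicate 1. The fitted log2 fold change was 0.25 ± 0.22 (SE; adjusted p 0.771 by edgeR), but 0.028 with Control replicate 1 left out and 0.52 with Control replicate 2 left out.

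Mylip, also called IDOL, encodes a ubiquitin ligase that marks lipoprotein receptors for degradation and is induced by the oxysterol receptors LXR rather than by SREBP. It was the lowest member, with 12.6 and 16.6 CPM (175 and 194 counts) in Trim33-deficient bodies, against 20.1 and 27.0 CPM (260 and 277 counts) in Control bodies. Both Trim33-deficient libraries were below both Control libraries. The log2 fold change was −0.69 ± 0.26 (SE), with adjusted p values of 0.637 by edgeR's quasi-likelihood test and 0.749 by DESeq2, so the difference did not pass. It was −0.66 within replicate 1 and −0.70 within replicate 2, and ran from −0.90 (Control replicate 1 left out) to −0.46 (Control replicate 2 left out).

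**Figure D3:**
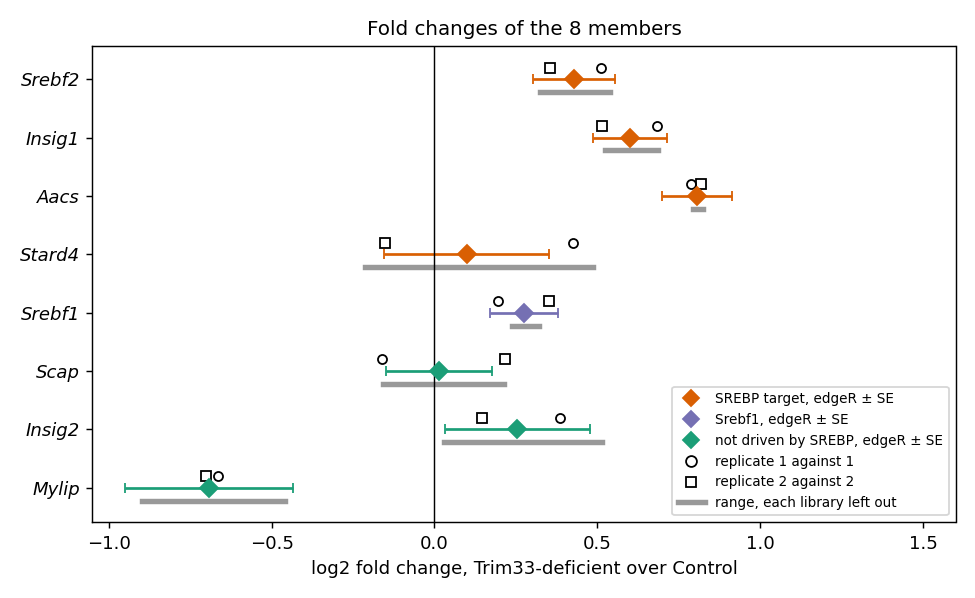
Log2 fold changes of the 8 members, Trim33-deficient over Control (x axis), as diamonds with the SE of edgeR's fit, coloured by class. Open symbols are the differences within replicate 1 and replicate 2, and grey bars the range over fits with each library left out; the grey bars of Stard4 and Scap cross 0, and those of Aacs, Insig1, Srebf2, Srebf1, Insig2 and Mylip do not.

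Levels of different members can be set side by side only per length. Per kilobase of the longest GRCm38 transcript, mean levels in Trim33-deficient bodies were 106 CPM for Srebf2, 46.0 for Insig1, 30.5 for Srebf1, 28.7 for Aacs, 19.8 for Scap, 11.7 for Stard4, 11.7 for Insig2 and 4.76 for Mylip. In Control bodies they were 78.9 CPM per kilobase for Srebf2, 30.3 for Insig1, 25.2 for Srebf1, 19.6 for Scap, 16.4 for Aacs, 10.97 for Stard4, 9.80 for Insig2 and 7.69 for Mylip. Srebf2 was thus the highest and Mylip the lowest in both groups, Aacs and Scap stood in opposite orders in the groups, and Stard4 and Insig2 did not differ beyond the spread of their libraries. The length used is that of 1 transcript per gene, so these levels are approximate.

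Ratios within a library do not depend on its scaling. For the INSIG paralogs, the log2 ratio of Insig1 to Insig2 counts was 2.17 and 1.77 in Trim33-deficient bodies, against 1.88 and 1.41 in Control bodies. Taken without pairing, the groups overlapped, and the difference of the means, 0.33, was about the size of the SD within a group (0.28 in Trim33-deficient and 0.33 in Control bodies, n = 2 each). Within the numbered pairs, Trim33-deficient minus Control, the difference was 0.30 for replicate 1 and 0.37 for replicate 2, and in both groups replicate 1 had the higher ratio. The log2 ratio of Insig1 to Scap, the induced retention protein against its constitutive partner, was 0.64 and 0.48 in Trim33-deficient bodies, against −0.20 and 0.18 in Control bodies, without overlap. The size of that difference was uneven between the numbered pairs, at 0.84 for replicate 1 and 0.30 for replicate 2. The log2 ratio of Srebf2 to Srebf1 was 2.06 and 2.02 in Trim33-deficient bodies, against 1.74 and 2.02 in Control bodies. Here Control replicate 1 was lower than the other 3 libraries, which lay close together. An exact two-sided permutation test of 2 against 2 libraries cannot go below p = 0.333, so the ratios are given as values.

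**Figure D4:**
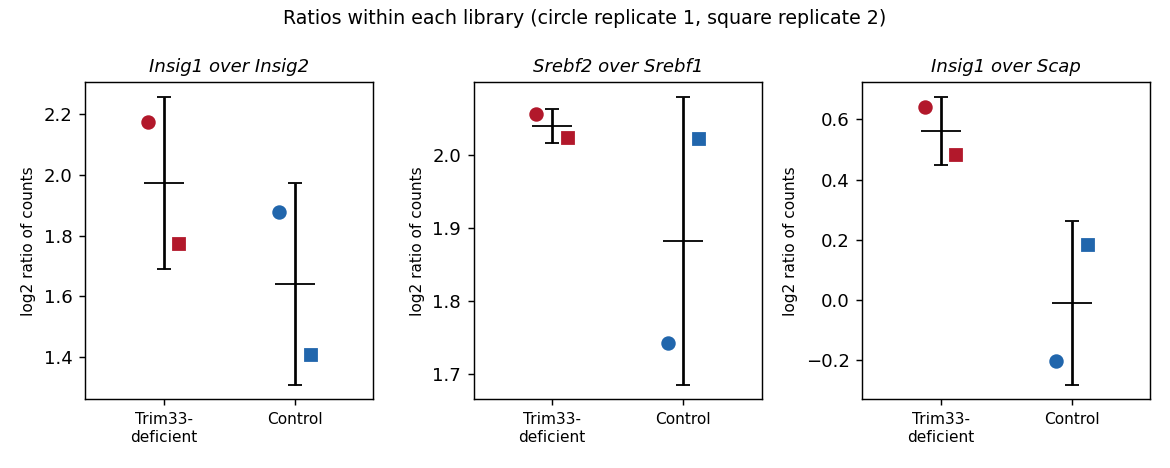
Log2 ratios of counts within each library (y axis, one scale per panel) for Insig1 over Insig2, Srebf2 over Srebf1 and Insig1 over Scap, with Trim33-deficient libraries in red and Control libraries in blue; lines are means and error bars the SD (n = 2 each). The groups overlap for Insig1 over Insig2 and do not for Insig1 over Scap.

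Genes that act with the members were then counted, from the SREBP machinery to its targets. The escort and cleavage machinery, which includes the Golgi proteases and the COPII coat that carries SCAP, had 12 members tested, 11 with a positive log2 fold change, a median of 0.090, and 0 at an unadjusted p under 0.05. The 2 with the smallest p were Sar1b, a COPII GTPase, at 61.2 and 58.2 CPM in Trim33-deficient and 52.8 and 46.5 CPM in Control bodies (log2 fold change 0.27 ± 0.13), and Mbtps2, which makes the final SREBP cut, at 41.4 and 41.5 CPM in Trim33-deficient and 47.7 and 50.3 CPM in Control bodies (−0.24 ± 0.12). Of the 12 genes of sterol-regulated degradation, the ubiquitin machinery that removes INSIG proteins and sterol enzymes, 7 were positive (median 0.066) and 0 reached an unadjusted p under 0.05. Its smallest p value belonged to Rnf139, a ubiquitin ligase of the endoplasmic reticulum (log2 fold change 0.33 ± 0.15). The 8 promoter partners of SREBP, subunits of NF-Y and factors such as Sp1, had 3 positive and a median of −0.031, with Nfyc (0.44 ± 0.24) and Med15 (0.17 ± 0.11) nearest to the threshold. By DESeq2, 0 genes of these 3 lists were called.

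Downstream, cholesterol synthesis enzymes had 19 of 19 tested genes with a positive log2 fold change, a median of 0.58, and 18 of 19 without overlap between the groups, all higher in Trim33-deficient bodies. Of all genes tested, 19.3% lay higher in this way. Hmgcs1, the 20th enzyme, was listed at 0 in every library. At an unadjusted edgeR p under 0.05, 14 enzymes were higher, against 3.06% of all genes, and 0 were lower. After adjustment edgeR's quasi-likelihood test called 0. DESeq2 called 4 as higher, where it called 0.182% of all genes in that direction. Sqle, squalene epoxidase, had 226 and 244 CPM in Trim33-deficient and 121 and 143 CPM in Control bodies (log2 fold change 0.83 ± 0.13, DESeq2 adjusted p 0.00123). Cyp51, the lanosterol demethylase, had 275 and 286 CPM in Trim33-deficient and 127 and 177 CPM in Control bodies (0.88 ± 0.19, 0.0155). Hsd17b7 (0.99 ± 0.21, 0.0356) and Msmo1 (0.72 ± 0.14, 0.0413), which act further along the same route, were the other 2, and Fdps, the farnesyl diphosphate synthase, was not called (0.80 ± 0.15, 0.0637). The summed level of the list was 2331 and 2279 CPM in Trim33-deficient bodies, against 1372 and 1685 CPM in Control bodies.

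Fatty acid synthesis targets, the group that SREBP-1 mainly drives, had 11 of 13 with a positive log2 fold change, a median of 0.44 (0.21 without Control replicate 1), 7 with both Trim33-deficient libraries above and 2 with both below. Of all genes tested, 19.3% lay above in this way and 21.4% lay below. DESeq2 called 2 of the list as higher, both stearoyl-CoA desaturases, where it called 0.182% of all genes in that direction. Scd1 had 197 and 152 CPM in Trim33-deficient and 85.7 and 90.3 CPM in Control bodies (log2 fold change 0.99 ± 0.16, DESeq2 adjusted p 0.000981). Scd2 was at 1798 and 1705 CPM in Trim33-deficient and 743 and 1104 CPM in Control bodies (0.92 ± 0.23, 0.0155). Fads1, a desaturase of longer chains, was not called (0.61 ± 0.14, 0.0906). Gpam, which starts glycerolipid synthesis, was at 32.7 and 35.6 CPM in Trim33-deficient and 46.3 and 44.7 CPM in Control bodies (−0.41 ± 0.13, DESeq2 adjusted p 0.833) and did not pass. The authors' deposited table, which lists 84 genes, contains 0 of the 8 members. It gives log2 fold changes of 0.84 for Sqle (adjusted p 0.0220), 0.89 for Cyp51 (0.00591), 0.997 for Scd1 (0.0125) and 0.93 for Scd2 (0.000841).

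Lipoprotein receptors and other genes of sterol uptake had 7 of 10 with a positive log2 fold change and a median of 0.10. Vldlr and Lrp8, 2 receptors that MYLIP also targets and that are named for that reason, showed wide spread. Vldlr was at 76.9 and 149 CPM in Trim33-deficient and 66.0 and 152 CPM in Control bodies (log2 fold change 0.050 ± 0.51), and Lrp8 at 59.1 and 49.3 CPM in Trim33-deficient and 63.7 and 32.8 CPM in Control bodies (0.17 ± 0.34). Neither differed beyond the spread between replicates. Beside Mylip, 7 of 10 genes of the LXR list passed the low-count filter, of which 5 were negative (median −0.095). Rxrb, a partner receptor of LXR, was at 77.5 and 67.4 CPM in Trim33-deficient and 97.5 and 90.5 CPM in Control bodies (−0.38 ± 0.13). Abca1, a cholesterol exporter and classical LXR target, was at 5.26 and 4.44 CPM in Trim33-deficient and 8.65 and 6.84 CPM in Control bodies (−0.67 ± 0.30). Its groups did not overlap, as for Mylip. Of the 7 genes, 3 had both Trim33-deficient libraries below both Control libraries, against 21.4% of all genes. Another 1 had both above, against 19.3% of all genes. By edgeR's quasi-likelihood test and by DESeq2, 0 genes of the list passed after adjustment. The E2 enzymes with which MYLIP works, Ube2d1 (0.28 ± 0.16), Ube2d3 (0.18 ± 0.11) and Ube2d2a (0.070 ± 0.12), had 3 of 3 positive log2 fold changes and 0 at an unadjusted p under 0.05.

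**Figure D5:**
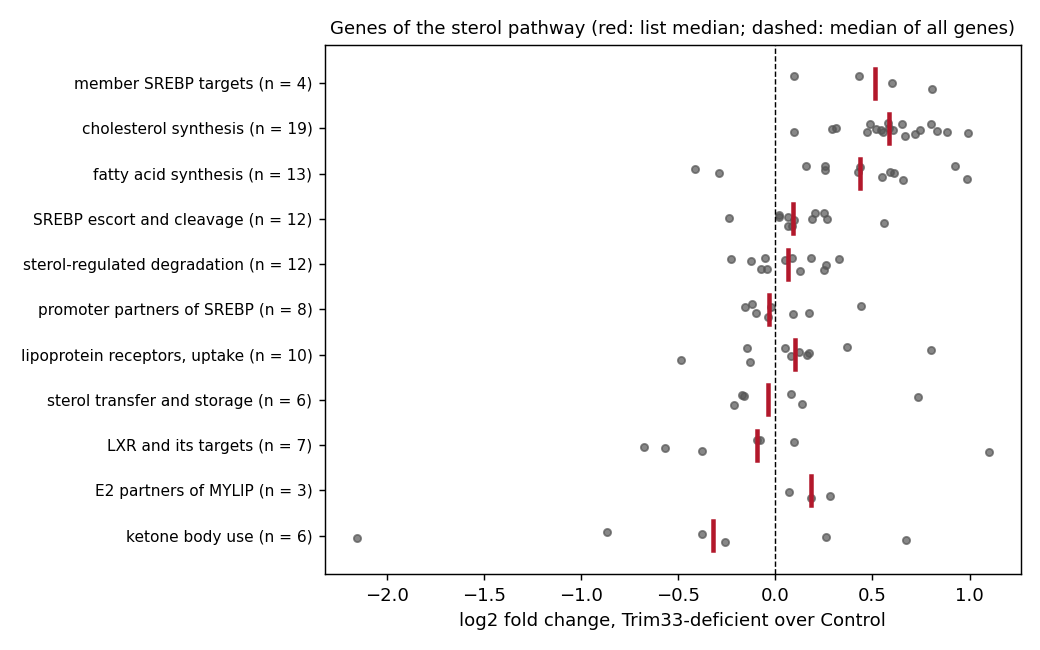
Log2 fold changes, Trim33-deficient over Control (x axis), of the tested genes in 11 lists around the members, 1 grey point per gene, with list medians in red and the median of all genes tested as a dashed line. Medians are 0.52 for the member SREBP targets, 0.58 for cholesterol synthesis and 0.44 for fatty acid synthesis, while the other 8 lists have medians between −0.32 and 0.18.

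By profile over the 4 libraries, the genes nearest to Insig1 among 10246 genes of at least 10 CPM were Stim2, 4930539J05Rik, Garnl3, Trib3 and Azin1, with root mean square differences of mean-centred log2 CPM of 0.015 to 0.066. Among the members Aacs came nearest to Insig1, at rank 85, and Srebf2 was at rank 115, Srebf1 at 405, Insig2 at 2578, Scap at 4546, Stard4 at 5549 and Mylip at 9595. Nearest to Srebf2 were Dapk3, Manf, Zak, Bud31 and Atf4 (0.015 to 0.028), with Srebf1 at rank 682 and Insig1 at rank 776. Ranks over 4 libraries describe likeness of levels in these libraries only.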

How the data were processed

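Total RNA of day-7 embryoid bodies went into Illumina libraries, per the labels' protocols, and libraries were grouped by their titles. STAR, HTSeq, DESeq and the build mm9 are named in the submitters' processing notes without version or role. Each deposited file lists raw read counts by gene symbol, and 55.5% to 56.0% of reads fell in no feature; rows that name no gene were left out. A table deposited by the authors lists 84 genes with, per the file headers, their log2 fold change and adjusted p-value.

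Counts were filtered with filterByExpr, TMM-scaled and tested with edgeR 4.0.16 in R 4.3.3 (quasi-likelihood F-test, two-sided, Benjamini-Hochberg, threshold 0.05, no replicate block). SE is the absolute log2 fold change over the square root of F. A prior count of 2 entered log2 ratios and profiles. Fits were repeated with DESeq2 1.42.0, with voom in limma 3.58.1, with edgeR's likelihood ratio test, with other scalings and filters, with the block, and with each library left out, which assumes that the lone library varies as the other group does. Scripts were tested on simulated data.

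The labels speak of independent pairs, so equal replicate numbers were taken as pairs. Same-numbered libraries deviated together from their group means (across genes, Pearson 0.236 and Spearman 0.207). No replicate was a duplicate (chi-square per degree of freedom 24.3 for Trim33-deficient and 35.7 for Control libraries). Separate cell lines are not stated for the replicates, and p-values then cover only the spread between these samples, which may be technical. Precision is limited by 2 libraries a group; 1 count is 0.0721 to 0.0976 CPM.

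Members and gene lists were chosen with earlier results of these data known. Named genes were the members, Trim33, the 2 of each list with the smallest p, those called, and the 5 nearest profiles of Insig1 and Srebf2. Vldlr, Lrp8, Gpam, Apoa1, Alb, Cyp7a1, Hmgcs1, Ube2d2a, Rai1 and Mir33 were added after their values were seen. Not every gene that the rule names is reported here. Promoter sequences are from RefSeq (GRCm38.p6). Gene lengths are from GRCm38, while the authors' build is mm9.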

Additional observations from a re-analysis of the deposited data

How the results depend on the processing

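Genes called numbered 2 by edgeR's quasi-likelihood test, 141 by DESeq2, 169 by edgeR's likelihood ratio test, 0 by limma voom (682 lower and 436 higher at an unadjusted edgeR p under 0.05) and 14 with no low-count filter. With each library left out they ranged from 0 to 676 over edgeR and DESeq2: edgeR called 0 without either Trim33-deficient library, 10 without Control replicate 1 and 91 without Control replicate 2, and DESeq2 called 54 and 48 without Trim33-deficient replicate 1 or 2 and 85 and 676 without Control replicate 1 or 2. With the replicate number as a block, edgeR called 2 genes and 0 members and DESeq2 187 genes and 0 members, so the block ended the DESeq2 call of Aacs. The likelihood ratio test, like DESeq2, called 1 member, Aacs (log2 fold change 0.80 and 0.81). Trim33 passed by DESeq2 (−1.22), by the likelihood ratio test (−1.23) and with the block in DESeq2 (−1.22), and ranged from −1.35 to −1.09 with each library left out; its DESeq2 call was lost without Trim33-deficient replicate 1 or 2 (adjusted p 0.167 and 0.219) and kept without Control replicate 1 or 2 (0.00339 and 0.0102). Scap turned negative on library size alone (−0.032) and ranged from −0.158 to 0.216 with each library left out; Stard4 ranged from −0.212 to 0.499. The other 6 members kept their sign in 17 of 17 alternatives. The Insig1 to Insig2 difference ranged from 0.097 to 0.57 with each library left out. Medians of cholesterol and fatty acid synthesis stayed above 0 (lowest 0.44 and 0.21, without Control replicate 1), while those of promoter partners, uptake, sterol transfer and LXR genes changed sign in 2 to 6 of 17. In the 200 bases before the start, 5 member windows held the inverted CCAAT box. The causes were not tested. Mylip, at 175 to 277 counts, is the member whose value depth limits most.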

Other observations

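Around AACS, the 6 genes of ketone body use had a median log2 fold change of −0.32 (−0.20 without Trim33-deficient replicate 1, −0.16 without Control replicate 1 and −0.45 without Control replicate 2), with 2 positive and 4 negative, and 0 passed adjustment by edgeR or DESeq2. Oxct1, which activates acetoacetate in mitochondria, was at 81.1 and 106 CPM in Trim33-deficient and 62.5 and 54.9 CPM in Control bodies (log2 fold change 0.68 ± 0.18, SE). Slc16a1, a transporter of lactate and ketone bodies, was at 391 and 249 CPM in Trim33-deficient and 580 and 585 CPM in Control bodies (−0.87 ± 0.24). Beside Stard4, 3 of 6 genes of sterol transfer and storage were positive (median −0.039). Stard3, a late endosomal sterol carrier, was at 45.7 and 52.1 CPM in Trim33-deficient and 54.9 and 55.4 CPM in Control bodies (−0.17 ± 0.13), and Stard6, at about 1 CPM, had a log2 fold change of 0.74 ± 0.56.

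Of the other marker lists, summed levels were 226 and 208 CPM in Trim33-deficient and 411 and 241 CPM in Control bodies for pluripotent cells, 759 and 138 against 83.2 and 250 CPM for cardiomyocytes, 228 and 212 against 431 and 213 CPM for neuroectoderm, 3437 and 9358 against 946 and 5446 CPM for mesenchyme and smooth muscle, and 229 and 283 against 178 and 406 CPM for endothelium. Control replicate 1 had the highest sum for pluripotent cells and neuroectoderm and the lowest for cardiomyocytes, mesenchyme and endothelium. The same library had the lowest Srebf2, Insig2 and Stard4 levels. Its Insig1 level was also the lowest, at 81.6 CPM against 81.8 CPM in Control replicate 2. So were its sums for cholesterol synthesis (1372 CPM, against 1685 CPM in Control replicate 2) and fatty acid synthesis (2130 against 2679 CPM). The part of its makeup in those values was not tested.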
